A study of Homo sapiens with 16 samples.

Results

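The clade B serpins examined here were SERPINB1 to SERPINB9, 9 genes of the family of intracellular serine protease inhibitors. They were followed in OVCAR3 cells, an established human ovarian carcinoma line, treated with the active vitamin D hormone, 1,25-dihydroxyvitamin D3 (1,25(OH)2D3). The members were chosen by symbol, as every probe set that the platform annotation assigns to exactly 1 of these genes. On the Affymetrix U133A array, 7 of the 9 had such a probe set, 10 probe sets in all, of 22283 on the array and 11963 genes. On the older U95 array 6 genes had 7 probe sets, of 12626. SERPINB2 and SERPINB6, which had no probe set listed under their symbols, were not analysed here.

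RNA was hybridised to 12 U133A arrays in 4 groups of 3 biological replicates: an ethanol vehicle control (labelled 0 h) and 8, 24 and 72 h with 1,25(OH)2D3 at a labelled concentration of 0.1 pM. All groups had ethanol in equal amount and for an equal time, and hormone was added at staggered times so that the cells were harvested together. 4 U95 arrays held 1 sample for the vehicle and for each time, with no replicates. Every sample was this cell line, with no engineered change named in the labels, grown in medium with serum and insulin, and the replicates were stated to be 3 independent experiments.

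Serpins inhibit proteases by a suicide mechanism: the protease cuts an exposed reactive loop, the serpin springs into a new fold, and the enzyme is trapped and distorted in a covalent complex. Clade B members lack a classical secretion signal and mostly act inside the cell, where they are known for protecting cells from their own or from taken-up granule and lysosomal proteases. Several are abundant in stratified epithelia, and SERPINB3, SERPINB4 and SERPINB5 are known as carcinoma-associated genes. 1,25(OH)2D3 acts through the vitamin D receptor, which binds DNA together with the retinoid X receptor, classically at a pair of receptor motifs spaced by 3 bases.

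In these cells the transcripts of SERPINB1 and SERPINB7 rose with time under 1,25(OH)2D3. SERPINB9 was called higher at 72 h in the main fit. SERPINB7 and SERPINB9 were below the filter on low values in vehicle and were tested because of their treated arrays. SERPINB7 was higher at 72 h than in vehicle by 4.11 on the log2 scale, and by 3.36 to 4.48 with other constants added before taking logs, since its vehicle signals were low. SERPINB1 was 2.5-fold higher at 72 h. SERPINB9 was 1.69-fold higher at 72 h, but this call was lost in 8 of 20 alternative fits, the fit with no filter among them. It did not pass the F test of a change at any time (limma, adjusted p = 0.112). No change of SERPINB8 or SERPINB3 passed the test, and SERPINB4 and SERPINB5 were under the filter on low values. Each U133A fold or log2 value, unless another constant is named, is on the log2(signal + 15.833) scale. Each was estimated from 3 arrays against 3 unless an array was left out, with the vehicle arrays shared by all times. The U95 ratios are on the log2(signal + 13.87) scale, from 1 array against 1. In bulk RNA, a higher level per cell and a larger share of cells with the transcript cannot be told apart.

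The promoters of the 3 genes called higher at some time are shown because their transcripts moved in these data. They were read from RefSeq on the GRCh38.p14 build, as windows of 300 bases that run from 250 before to 50 after an annotated start. RefSeq lists 3 starts for SERPINB7, and the arrays do not tell which was used. Capitals mark a match, on either strand, to the receptor hexamers AGGTCA or AGTTCA or GGGTCA or GGTTCA, to the AP-1 site TGANTCA or to the TATA box TATAAA. Where matches overlap, as for the first receptor hexamers of SERPINB9, the capitals run together.
SERPINB7, start 1, chr18:63752807-63753106, plus strand: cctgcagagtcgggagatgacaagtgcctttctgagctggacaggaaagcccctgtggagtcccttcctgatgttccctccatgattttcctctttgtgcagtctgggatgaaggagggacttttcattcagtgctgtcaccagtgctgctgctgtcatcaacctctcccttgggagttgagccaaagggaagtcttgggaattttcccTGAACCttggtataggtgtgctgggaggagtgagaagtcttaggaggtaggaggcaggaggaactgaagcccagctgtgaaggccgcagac
SERPINB7, start 2, chr18:63775168-63775467, plus strand: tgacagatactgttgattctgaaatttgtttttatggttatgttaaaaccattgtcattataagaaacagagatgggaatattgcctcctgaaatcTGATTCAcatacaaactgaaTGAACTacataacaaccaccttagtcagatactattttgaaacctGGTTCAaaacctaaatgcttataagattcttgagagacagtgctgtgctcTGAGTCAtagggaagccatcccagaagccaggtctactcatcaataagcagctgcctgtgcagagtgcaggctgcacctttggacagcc
SERPINB7, start 3, chr18:63777531-63777830, plus strand: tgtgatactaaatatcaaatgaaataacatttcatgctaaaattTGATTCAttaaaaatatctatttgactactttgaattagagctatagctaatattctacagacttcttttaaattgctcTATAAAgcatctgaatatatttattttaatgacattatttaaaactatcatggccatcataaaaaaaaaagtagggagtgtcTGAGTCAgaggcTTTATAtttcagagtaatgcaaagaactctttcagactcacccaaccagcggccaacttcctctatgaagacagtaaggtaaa
SERPINB1, start 1, chr6:2841814-2842113, minus strand: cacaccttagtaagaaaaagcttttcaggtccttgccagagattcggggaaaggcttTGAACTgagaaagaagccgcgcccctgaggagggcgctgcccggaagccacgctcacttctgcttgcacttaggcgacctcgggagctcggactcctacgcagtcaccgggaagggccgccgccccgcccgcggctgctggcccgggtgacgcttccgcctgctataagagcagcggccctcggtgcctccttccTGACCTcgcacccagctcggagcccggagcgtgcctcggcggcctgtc
SERPINB9, start 1, chr6:2903260-2903559, minus strand: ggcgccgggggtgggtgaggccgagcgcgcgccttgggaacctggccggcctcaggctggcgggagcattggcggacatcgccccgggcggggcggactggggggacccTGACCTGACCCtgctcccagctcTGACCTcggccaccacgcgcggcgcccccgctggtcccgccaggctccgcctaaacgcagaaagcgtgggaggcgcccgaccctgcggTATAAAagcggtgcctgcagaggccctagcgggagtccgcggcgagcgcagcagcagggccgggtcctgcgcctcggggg

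The first SERPINB7 window held 1 receptor hexamer, with its first base 41 bases before the start. The second held 2 receptor hexamers and 2 AP-1 sites, and the third held 2 AP-1 sites, 2 TATA boxes and no receptor hexamer. SERPINB1 had 2 receptor hexamers and SERPINB9 had 3, with a TATA box beginning 30 bases before the start of SERPINB9. A receptor hexamer is common: 38.6% of the 35116 RefSeq promoter windows held at least 1. An AP-1 site was in 7.71% and a TATA box in 11.5% of them. The classical arrangement, a pair of these hexamers in the same direction with 3 bases between them, was in 0.074% of the windows and in none of the members' windows (all 9 members had at least 1 window). These are matches of letters in a short window and give no information on binding.

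SERPINB7, also called megsin, is an inhibitor whose loss in humans causes a thickening of the skin of the palms and soles. Its probe set 206421_s_at gave signals of 52.9, 65.4 and 30.8 on the 3 vehicle arrays. With 1,25(OH)2D3 the signals were 165.8, 70.0 and 67.2 at 8 h, 646.5, 422.4 and 482.8 at 24 h, and 1007, 1165 and 1084 at 72 h. Replicate 1 at 8 h stood above the other 8 h arrays, and every treated array at every time lay above every vehicle array. At 8 h this was only just so, with 67.2 on the lowest treated array and 65.4 on the highest vehicle array. For this and the other members, the share of all genes separated in this way is not given here. Group means were 49.7 ± 17.6, 101.0 ± 56.1, 517.2 ± 116.0 and 1085 ± 79.0 (SD, n = 3 each). The log2 difference from vehicle was 0.77 at 8 h (95% interval 0.18 to 1.37), which did not pass the threshold (limma, adjusted p = 0.427) and was 0.40 without 8 h replicate 1. It was 3.04 at 24 h (2.44 to 3.64, adjusted p = 4.99e-06) and 4.11 at 72 h (3.51 to 4.70, adjusted p = 1.5e-07). On this log2 scale the step from 8 to 24 h was larger than the steps before and after it. On the signal means the step from 24 to 72 h was the largest. The steps cover unequal times and their sizes were not compared by a test.

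Detection calls were not used, so the vehicle signals of SERPINB7 are not shown to be above background, and its fold rests on the constant added. With a constant of 1 the log2 change at 72 h was 4.48, and with 4 times the constant used it was 3.36. The vehicle mean was below the filter on low values, which corresponds to a signal of 169, so the gene was tested because of its treated arrays and had to differ to be tested. Without the filter it was called higher at 24 and 72 h as well.

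SERPINB1 encodes an inhibitor of neutrophil elastase and cathepsin G, known for limiting the damage these enzymes do to the cells that carry them. Its probe set 212268_at gave 369.5, 458.9 and 420.6 in vehicle and 640.3, 751.1 and 592.6 at 8 h. The later signals were 752.0, 916.3 and 846.6 at 24 h and 1026, 1124 and 1034 at 72 h. Every treated array exceeded every vehicle array, and the 72 h arrays also lay above all 24 h arrays. Group means went from 416.3 ± 44.9 in vehicle to 661.3 ± 81.3, 838.3 ± 82.5 and 1061 ± 54.4 (SD, n = 3 each). The log2 change was 0.65 at 8 h (limma, adjusted p = 0.0143), 0.98 at 24 h (adjusted p = 0.00013) and 1.32 at 72 h (adjusted p = 3.65e-06). The 95% intervals were 0.39 to 0.91, 0.72 to 1.24 and 1.06 to 1.58.

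A second SERPINB1 probe set, 213572_s_at, had lower signals and the same order of groups. It read 291.1, 304.4 and 287.7 in vehicle, 305.7, 425.0 and 413.8 at 8 h, 437.4, 499.3 and 546.8 at 24 h, and 546.3, 666.1 and 567.0 at 72 h. All its treated arrays were above all vehicle arrays, with replicate 1 at 8 h only just so. Fitted on its own it rose by log2 0.71 at 24 h (limma, adjusted p = 0.0112) and 0.97 at 72 h (adjusted p = 0.000655). Its difference at 8 h was 0.34 (adjusted p = 0.746).

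The 8 h call of SERPINB1 therefore held for 1 of its 2 probe sets. It was also lost with the mean of both (log2 0.49, adjusted p = 0.0828). Leaving out vehicle replicate 1 or 3, or 8 h replicate 1 or 2, raised the adjusted p to 0.112, 0.058, 0.0543 and 0.0962. The log2 difference in these fits was between 0.55 and 0.67.

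SERPINB9 is the inhibitor of granzyme B, the protease that cytotoxic lymphocytes deliver to target cells. Its brighter probe set, 209723_at, gave 139.5, 110.8 and 169.2 in vehicle and 153.6, 145.5 and 163.6 at 8 h. At 24 h it gave 200.2, 224.6 and 151.8, and at 72 h 238.6, 266.1 and 227.2. The 8 h arrays fell within the vehicle range, 2 of 3 arrays at 24 h were above it, and all 3 at 72 h were above it. The mean was 139.8 ± 29.2 in vehicle and 244.0 ± 20.0 at 72 h (SD, n = 3 each). The log2 change of 0.75 at 72 h (95% interval 0.33 to 1.18) passed the threshold (limma, adjusted p = 0.0323), while 0.14 at 8 h and 0.42 at 24 h did not (adjusted p = 0.999 and 0.354).

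The vehicle mean of SERPINB9 was below the filter signal of 169, so the gene was tested because of its treated arrays. Its 72 h call was close to the threshold. It was lost without vehicle replicate 1 (adjusted p = 0.0913) or 2 (0.137), without 72 h replicate 1, 2 or 3 (0.069, 0.0905 and 0.0546), with no filter (0.0686) and with only the vehicle and 72 h groups fitted (0.0796). The log2 difference ranged from 0.61 to 0.80 over these fits. The dimmer probe set 209722_s_at, under the filter, gave 62.9, 52.7 and 71.8 in vehicle and 82.9, 47.7 and 105.4 at 72 h. These ranges overlap, and its own log2 difference at 72 h was 0.23 (adjusted p = 0.898, fit without the filter). At 8 h it gave 10.3, 66.3 and 61.0, and at 24 h 50.8, 121.7 and 80.4, on both sides of the vehicle range.

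SERPINB8, an inhibitor of the proprotein convertase furin, had signals of 235.0, 204.8 and 240.9 in vehicle on probe set 206034_at. It had 283.4, 381.1 and 229.1 at 8 h, 236.4, 296.6 and 258.6 at 24 h and 293.7, 288.5 and 326.3 at 72 h. The 72 h arrays were all above the vehicle arrays, and 1 array at each of 8 and 24 h was not. The log2 difference was 0.34 at 8 h, 0.20 at 24 h and 0.39 at 72 h (95% interval at 72 h 0.02 to 0.77), with adjusted p of 0.854, 0.7 and 0.226 (limma). None passed the threshold, and the interval at 72 h leaves room for a change between nearly 0 and 0.77.

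SERPINB3 and SERPINB4, the squamous cell carcinoma antigens, inhibit cathepsin L-like cysteine proteases and chymotrypsin-like serine proteases respectively. They are near-identical copies, so their probe sets may not separate them, which was not examined because probe sequences were not at hand. For this reason 1 further U133A probe set, assigned to both genes, was left out of the tests. Their RefSeq promoter windows shared 296 of 300 bases (98.7%), which does not bear on the probes. SERPINB3 probe set 209719_x_at read 251.7, 164.6 and 271.8 in vehicle, 214.6, 201.3 and 194.7 at 8 h, 158.8, 256.4 and 190.5 at 24 h, and 192.8, 191.0 and 239.0 at 72 h. The groups overlapped at every time. The log2 differences were -0.13, -0.17 and -0.11 (95% interval at 72 h -0.56 to 0.34, limma adjusted p = 0.836). The second SERPINB3 probe set, 209720_s_at, was dim in all groups, with 7.74 to 34.4 in vehicle and 18.8 to 55.0 at 72 h. Its log2 difference at 72 h had the opposite sign, 0.80 (adjusted p = 0.37, fit without the filter).

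The left-out probe set, 210413_x_at, had group means of 168.1 ± 21.4, 145.5 ± 2.89, 158.0 ± 6.77 and 129.2 ± 18.8 (SD, n = 3 each) in vehicle and at 8, 24 and 72 h. The only SERPINB4 probe set, 211906_s_at, read 57.2, 57.7 and 67.4 in vehicle and 71.8, 57.7 and 94.9 at 8 h. It read 40.2, 45.5 and 51.1 at 24 h, all below the vehicle arrays, and 9.28, 69.8 and 63.6 at 72 h, on both sides of them. Fitted without the filter, its log2 differences were 0.22, -0.32 and -0.46 (limma, adjusted p = 0.999, 0.859 and 0.672). The last became 0.11 without 72 h replicate 1, the array at 9.28.

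SERPINB5, known as maspin, belongs to the family by sequence and does not inhibit proteases. Its probe set 204855_at spread widely within groups, with 151.7, 80.7 and 35.3 in vehicle and 57.3, 130.3 and 26.8 at 24 h. It gave 76.2, 78.7 and 64.8 at 8 h and 103.3, 117.7 and 108.6 at 72 h, all within the vehicle range. Fitted without the filter, the log2 differences were -0.08, -0.29 and 0.42 (limma, adjusted p = 0.999, 0.896 and 0.757). Their signs rest on single arrays: without vehicle replicate 1 they were 0.34 at 8 h and 0.13 at 24 h, without 24 h replicate 3 the 24 h value was 0.14, and without vehicle replicate 3 the 72 h value was -0.02.

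**Figure D1:**
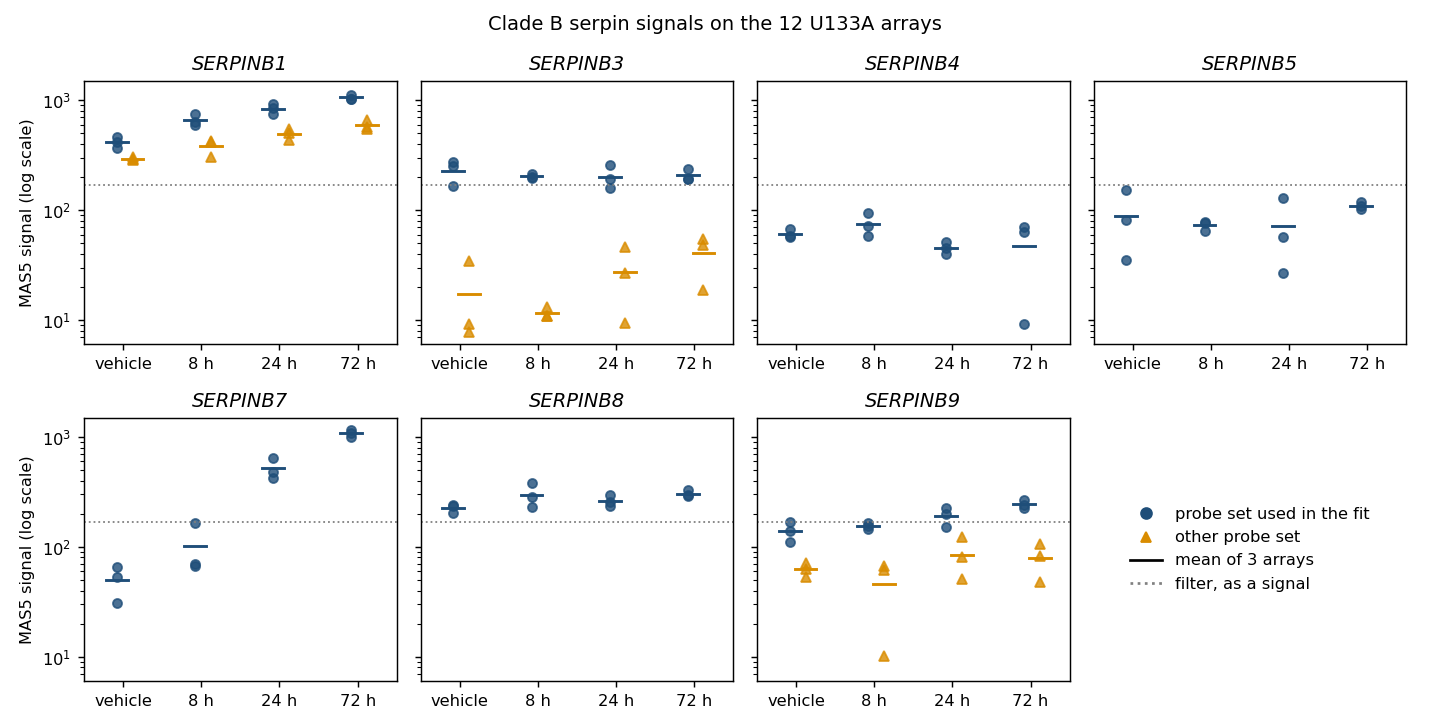
MAS5 signal (log scale) of each member on the 12 U133A arrays, by group: circles are the probe set used in the fit, triangles a gene's other probe set, bars the mean of 3 arrays, and the dotted line the filter, a signal of 169. SERPINB7 goes from 30.8 to 65.4 in vehicle to between 1007 and 1165 at 72 h, SERPINB1 from 369.5 to 458.9 to between 1026 and 1124, and the SERPINB3, SERPINB4 and SERPINB5 groups overlap at 72 h.

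Of the 5 members above the filter, 1 was called higher at 8 h (SERPINB1), 2 at 24 h (SERPINB1 and SERPINB7) and 3 at 72 h (with SERPINB9), and none was called lower by limma (0 also at an unadjusted p under 0.05). Among all 7178 genes tested, 0.711% were called higher at 8 h, 2.45% at 24 h and 3.86% at 72 h. The median log2 change of the 5 was 0.34, 0.42 and 0.75 at the 3 times, beside -0.004, -0.016 and -0.015 over all genes tested. These counts and medians are a description and do not support a statement on the members: SERPINB7 and SERPINB9 were below the filter in vehicle and passed it through the treated arrays. Without the filter, 2 of the 7 members with a probe set were called higher at 72 h, and SERPINB9 was not (adjusted p = 0.0686). Ordered by log2 change among the 7178 genes, SERPINB7 was at place 45 at 8 h and at place 4 at 24 and 72 h, and SERPINB1 at places 71, 52 and 44. SERPINB3 was at places 5803, 5605 and 4798, in the lower part of the order.

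**Figure D2:**
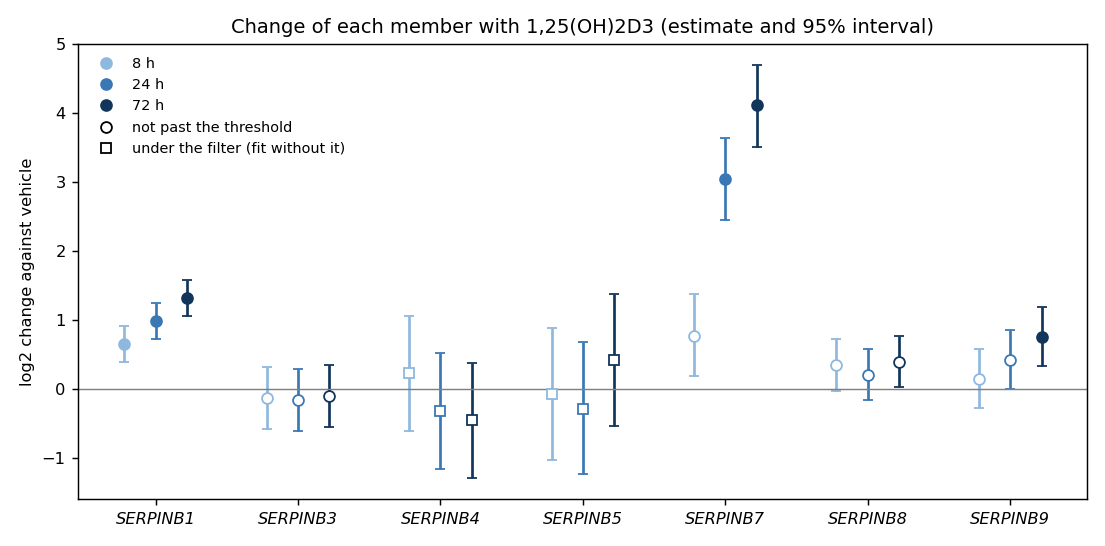
Log2 change of each member against vehicle at 8, 24 and 72 h, with 95% intervals; filled circles passed the threshold (limma, adjusted p under 0.05), open circles did not, and squares are genes under the filter, fitted without it. SERPINB7 reaches 4.11 and SERPINB1 1.32 at 72 h, and the SERPINB3, SERPINB4 and SERPINB5 intervals include 0 at all times.

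The time courses were then compared between treated groups, 3 comparisons whose differences do not involve the vehicle arrays. SERPINB7 was higher at 24 h than at 8 h by log2 2.27 (limma, adjusted p = 0.000791), a call made for 0.362% of all genes. It was higher at 72 h than at 8 h by 3.33 (adjusted p = 4.45e-06). The vehicle and 8 h means of SERPINB7 were below the filter signal of 169, so it was tested because of its later arrays. Its calls beside the shares of all genes are therefore a description only. Without the filter both differences passed as well (limma, adjusted p = 0.00693 and 6.55e-05). SERPINB1 was also higher at 72 h than at 8 h, by 0.68 (adjusted p = 0.00649), and 1.38% of all genes were called higher in that comparison. No member passed from 24 to 72 h (limma; 2 of 5 at an unadjusted p under 0.05), where 0.0836% of all genes were called higher. There SERPINB7 differed by 1.07 (adjusted p = 0.181) and SERPINB1 by 0.34 (adjusted p = 0.313). With only the 24 and 72 h groups fitted, SERPINB7 was called. In the order vehicle, 8, 24, 72 h the neighbours that the test did not separate were thus vehicle and 8 h and also 24 and 72 h for SERPINB7, and 8 and 24 h and also 24 and 72 h for SERPINB1.

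SERPINB1 and SERPINB7 passed the F test of a change at any time (limma, adjusted p = 2.37e-05 and 3.22e-07), as did 5.21% of all genes, and SERPINB9 did not (adjusted p = 0.112). SERPINB7 and SERPINB9 were in this test because of their treated arrays. Without the filter the F test gave an adjusted p of 7.59e-06 for SERPINB7 and 0.211 for SERPINB9 (limma).

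On the 4 unreplicated U95 arrays the SERPINB7 signals were 217.1 in vehicle and 363.7, 620.0 and 900.6 at 8, 24 and 72 h. SERPINB1 read 312.3, 569.7, 764.4 and 737.3. Both were higher on every treated array than on the vehicle array, with log2 ratios at 72 h of 1.99 for SERPINB7 and 1.20 for SERPINB1. The values on U133A were 4.11 and 1.32, from other probe sets. SERPINB9 read 236.4, 84.5, 286.5 and 445.5, below vehicle at 8 h and above it at 72 h. SERPINB8 read 54.7, 90.6, 71.8 and 170.7, with a log2 ratio of 1.43 at 72 h and a mean under the U95 filter.

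SERPINB5 had 2 U95 probe sets, with signals of 219.6, 174.9, 224.4 and 190.3 on 863_g_at and 178.1, 149.2, 103.6 and 166.4 on 862_at in the same order of times, and neither moved by as much as 2-fold. SERPINB3 read 22.9, 27.4, 19.9 and 30.9, low on all arrays. The U95 probe set assigned to both SERPINB3 and SERPINB4, 1549_s_at, read 16.47, 63.09, 47.85 and 71.06. These were higher on every treated array than on the vehicle array, and all were under the U95 filter, a signal of 155. Of the 4 members above the U95 filter, none was at least 2-fold higher at 8 h, and 2, SERPINB1 and SERPINB7, were at 24 and at 72 h. Of all 4937 genes above that filter, 0.83%, 1.38% and 1.72% were at least 2-fold higher at 8, 24 and 72 h. With 1 array a time these ratios have no test.

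**Figure D3:**
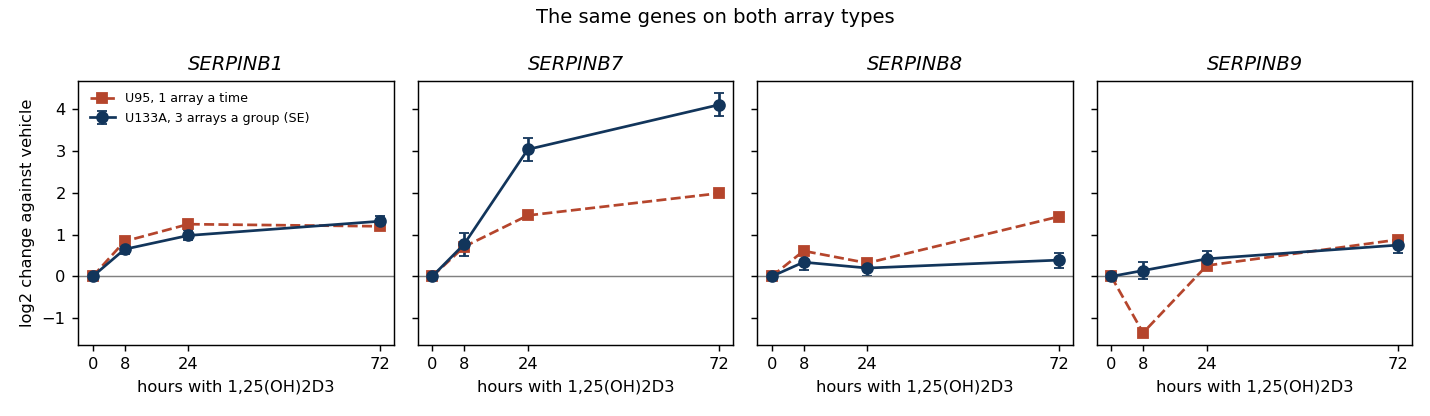
Log2 change against vehicle over time for SERPINB1, SERPINB7, SERPINB8 and SERPINB9 on U133A (circles, 3 arrays a group, bars are SE) and on U95 (squares, 1 array a time, no error). SERPINB1 reaches 1.32 and 1.20 at 72 h on the 2 array types, SERPINB7 reaches 4.11 and 1.99, and SERPINB9 is at -1.35 on U95 at 8 h.

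The clade B genes lie in a pair of clusters, and the members called higher came from both. In RefSeq order SERPINB1, SERPINB9 and SERPINB6 are neighbours on chromosome 6. The other members lie on chromosome 18 in the order SERPINB5, SERPINB4, SERPINB3, SERPINB7, SERPINB2 and SERPINB8, with other clade B genes between them. Of the 10 clade B genes there 3 were tested. SERPINB7 changed by log2 4.11 at 72 h, and the nearest tested clade B genes before and after it, SERPINB3 and SERPINB8, differed by -0.11 and 0.39. The 2 tested flanking genes, KDSR and VPS4B, differed by -0.06 and 0.02.

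**Figure D4:**
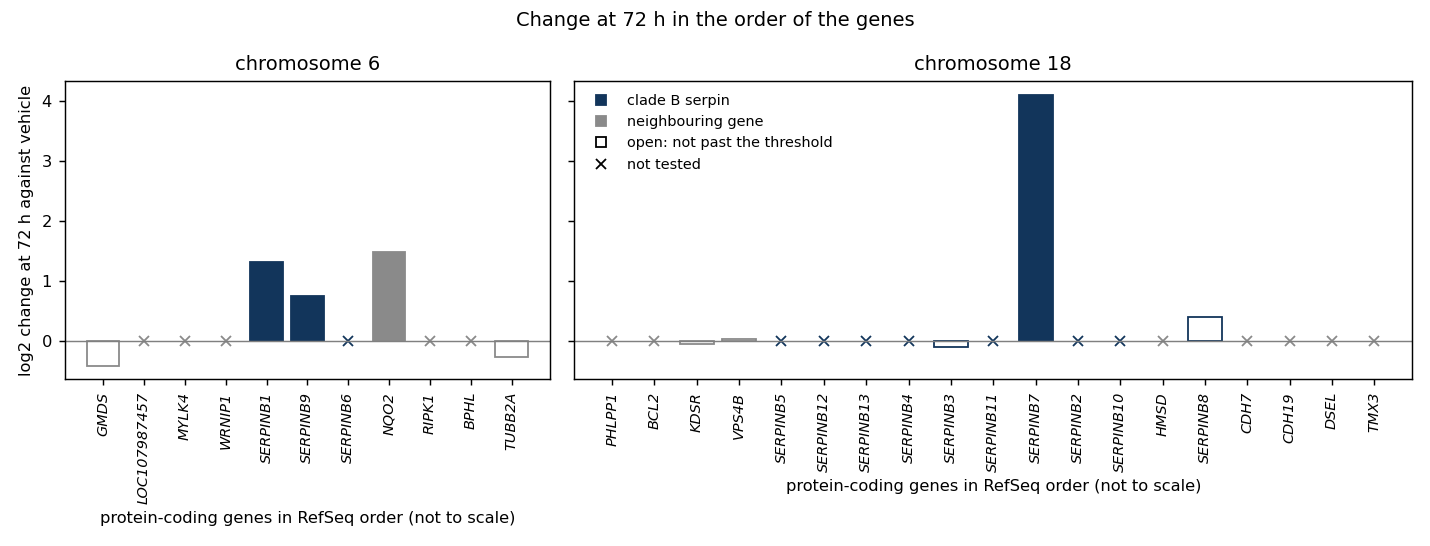
Log2 change at 72 h of the protein-coding genes around the clade B serpins, in RefSeq order and not to scale, for chromosome 6 and chromosome 18; blue bars are clade B serpins, grey bars neighbours, open bars did not pass the threshold, and crosses are genes not tested. SERPINB7 stands at 4.11 between untested genes, and SERPINB1 and SERPINB9 stand at 1.32 and 0.75. The tested neighbours on chromosome 6 are NQO2 at 1.48, GMDS at -0.42 and TUBB2A at -0.27, and of these only NQO2 passed the threshold.

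The genes whose gene-centred log2 profiles over the 12 arrays were nearest to that of SERPINB1 were PFKP, PGM1, FAM174B, HIVEP2 and DNAJB2, with root mean square differences from 0.14 to 0.20. PFKP, the nearest, changed by 0.45, 0.66 and 1.01 at 8, 24 and 72 h. For SERPINB7 the nearest were WNT11, KLK6, DPYSL3, CAMP and FLG, at larger distances of 0.53 to 0.89. WNT11 changed by 0.56, 3.17 and 4.58. SERPINB1 and SERPINB7 were 1.26 apart. The profiles were not scaled, so this distance includes the different size of their changes. It cannot be set against the nearest genes, which were picked for small distances.

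The other genes of the protease and inhibitor system moved in part, and none of the tested genes of the lists described here passed at 8 h (limma). Of 16 tested proteases that clade B serpins inhibit or bind, none passed at 8 h (2 at an unadjusted p under 0.05), and 2 were higher and 1 lower at both 24 and 72 h. Over all 7178 genes tested, 2.45% were called higher and 1.62% lower at 24 h, and 3.86% higher and 2.98% lower at 72 h. The kallikreins KLK5 and KLK8, secreted serine proteases of skin and ovarian carcinoma, rose by log2 1.05 and 0.69 at 72 h (limma, adjusted p = 1.33e-05 and 0.000932). The lysosomal cysteine protease CTSB fell by 0.49 (adjusted p = 0.000474), from a mean signal of 13700 to 9740. The median log2 change of the 16 at 72 h was -0.02, near the -0.015 of all genes tested.

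Of 7 tested genes of plasminogen activation, 2 were higher at 72 h (3.86% of all genes were) and 1 had an unadjusted p under 0.05 at 8 h. They were PLAUR, the urokinase receptor, by log2 0.75 (limma, adjusted p = 0.000377), and S100A10, a plasminogen-binding protein, by 0.61 (adjusted p = 0.0141). Of 10 tested cystatins and other protease inhibitors 1 had such a p at 8 h and 2 were higher at 72 h, beside the same 3.86% of all genes, the leukocyte protease inhibitor SLPI by 0.35 (adjusted p = 0.0252) and cystatin C, CST3, by 0.42 (adjusted p = 0.0223). The medians of these lists at 72 h were 0.26 and 0.22.

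Among serpins of other clades, 5 of the 18 on the array were tested and 1, SERPINA1, the secreted inhibitor of neutrophil elastase, passed, called lower at 72 h as were 2.98% of all genes. Its mean signal was 367.0 ± 31.6 in vehicle and 190.0 ± 59.5 at 72 h (SD, n = 3 each). It fell by 0.93 on the log2 scale at 72 h (limma, adjusted p = 0.00478), the direction opposite to that of SERPINB1, whose product is directed at the same protease. Of the other clade B serpins, SERPINB10 and SERPINB13 had probe sets and both were under the filter. Of 5 tested genes of squamous differentiation, of 18 on the array, FLG, the filaggrin gene of the outer skin layers, alone was called higher at 72 h (log2 2.37, limma adjusted p = 3.92e-08), beside 3.86% of all genes.

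The hormone response and identity of the cells were checked in the same fit. CYP24A1, the 24-hydroxylase that is the classical vitamin D target, rose by log2 5.65, 5.86 and 5.89 at the 3 times. All 12 ovarian carcinoma epithelium markers were above the filter, with a summed signal of 55700 to 62800 in vehicle, 56600 to 61000 at 8 h, 52300 to 57000 at 24 h and 58800 to 63100 at 72 h. Of these 12, 6 were called changed at some time by limma, and 10 had an unadjusted p under 0.05, so the identity markers were present but not constant. Of markers of other cells, 3 of 7 fibroblast genes (COL1A1, DCN and THY1), 1 of 6 leukocyte genes on the array (ITGAM) and 0 of 4 endothelial genes were above it, and none of these was called by limma at any time (0 also at an unadjusted p under 0.05). The summed leukocyte signal was 552 to 658 in vehicle and 499 to 646 at 72 h. Array medians ran from 168 to 196, and correlations between arrays from 0.958 to 0.976.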

How the data were processed

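Each deposited value is the intensity of a probe set on a linear scale, computed by the authors with MAS5 according to the submitters' processing notes. Their 2% trimmed mean was 500.2 on every U133A array, so they were used as deposited, without further scaling. Probe sets were named from the platform annotation. In R 4.3.3 (package data.table, version 1.17.8), values were transformed as log2(signal + 15.833), the 10th percentile of all U133A values (13.87 for U95). Each gene was represented by its probe set of highest mean, and genes with a mean under the 40th percentile were left out. Of 11963 genes 7178 were fitted with limma 3.58.1 (lmFit, eBayes with trend) on all 12 arrays, with 8 residual degrees of freedom, no replicate block and Benjamini-Hochberg adjustment over the 7178, threshold 0.05. The fit was tested on simulated data.

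The text names every member, list genes past the threshold, the 5 nearest profiles and CYP24A1. Named outside this rule are SERPINB10, SERPINB13, KDSR, VPS4B, GMDS, TUBB2A and NQO2, for their family or place (NQO2 after its values were seen), and the marker genes above the filter, COL1A1, DCN, THY1 and ITGAM. Members and lists were chosen with earlier results of these data known. For arrays with the same replicate number, deviations from the group mean correlated by 0.052 to 0.263 over 18 pairs, with every pair over 0.1 in 2 of 6 comparisons of groups (8 with 24 h, 24 with 72 h), so the vehicle comparisons were not taken as paired. The comparisons between treated times also came from the fit with no block. With the block as an alternative, 1 member was still called from 8 to 24 h and 0 from 24 to 72 h (limma). Signals of different probe sets are not comparable as levels. The number of arrays limits the precision.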

Additional observations from a re-analysis of the deposited data

Results flagged for a closer look

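3 differences between treated times passed their own test (limma, adjusted over 7178 genes). SERPINB7 was higher at 24 h than at 8 h by log2 2.27 (SE 0.28, adjusted p = 0.000791) and higher at 72 h than at 8 h by 3.33 (SE 0.28, adjusted p = 4.45e-06). SERPINB7 was tested because of its later arrays, and without the filter both of its differences passed too (limma, adjusted p = 0.00693 and 6.55e-05). SERPINB1 was higher at 72 h than at 8 h by 0.68 (SE 0.12, adjusted p = 0.00649). In each of the 3 differences the 3 later arrays all lay above the 3 arrays at 8 h. The differences were picked by a test on the same arrays, so this separation adds no support. The share of all genes separated in this way is not given here. No group had 4 or more arrays, so single arrays were not screened for outliers.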

How the results depend on the processing

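Of 199 recomputed counts, 189 stayed within 1.5 times the value reported. Of 423 recomputed log2 differences of single members, 404 stayed as reported, by direction and side of the threshold. For the untested SERPINB4 and SERPINB5, staying as reported meant within 1 SD. These shares do not measure stability, since many values had little room to move. Leaving out an array of a group outside the comparison leaves the log2 difference itself unchanged. Many values were also of members not called in the main fit. SERPINB7 at 24 and 72 h and SERPINB1 at 24 and 72 h passed under every alternative run. Members called at 8 h went from 1 to 0 when probe sets of a gene were averaged, and ranged from 0 to 1 when single arrays were left out. At 72 h, members called went from 3 to 2 with no filter, with averaged probe sets and with only the 2 groups compared. The count was also 2 without vehicle replicate 1 or 2 and without 72 h replicate 1, 2 or 3. These moves from 3 to 2 are among those within 1.5 times. Members called from 24 to 72 h went from 0 to 1 with only those groups fitted. With the replicate block, all genes called went from 55 to 84 at 8 h, from 292 to 420 at 24 h and from 491 to 653 at 72 h. The block changed no call of a member. With single arrays left out, all genes called ranged from 187 to 314 at 24 h (292 with all arrays; 187 without vehicle replicate 3) and from 322 to 532 at 72 h (491 with all arrays; 325 and 322 without vehicle replicates 1 and 3). Signs reversed for SERPINB3 at 72 h without vehicle replicate 3 (0.02, in a range of -0.32 to 0.02 over single arrays left out), and on the dim probe sets of SERPINB3 at 24 h (0.39) and 72 h (0.80) and SERPINB9 at 8 h (-0.51), an alternative chosen after seeing the data. For the untested SERPINB4 at 72 h and SERPINB5 at all times the sign also turned with single arrays left out (SERPINB4 0.11; SERPINB5 0.34 at 8 h, 0.13 and 0.14 at 24 h, -0.02 at 72 h). After averaging, SERPINB3 and SERPINB9 fell under the filter and gave no value. The causes were not tested.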

Other observations

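On chromosome 6 the gene next to the clade B cluster in RefSeq order is NQO2, a quinone reductase, which was singled out after its values were seen. It differed by log2 0.55 at 8 h (limma, adjusted p = 0.353) and rose by 1.11 at 24 h (adjusted p = 0.00188) and 1.48 at 72 h (adjusted p = 0.000104). Of all genes tested, 2.45% were called higher at 24 h and 3.86% at 72 h. GMDS and TUBB2A, the other tested genes around that cluster, differed by -0.42 and -0.27 at 72 h (adjusted p = 0.208 and 0.474).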
